A study of Mus musculus with 4 samples.

Results

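Chromatin opening in hepatocytes 96 hours after partial hepatectomy (PHx 96 h) was compared with that in hepatocytes of undamaged liver (PHx 0 h), to see which regions still differed at the last time point sampled. The unit compared was a pair of peaks, 1 from each library, that overlapped one another and no other peak, lay on an autosome and differed in length by at most 1.5 times. There were 18126 such pairs, out of 58233 autosomal pairs that overlapped one to one, and out of 511054 autosomal peaks over the 4 libraries of the series. Each library profiled open chromatin in single nuclei (scATAC-seq) from hepatocytes that were released by 2-step collagenase perfusion of the liver of adult male C57BL/6J mice, 10 to 12 weeks old per the labels and on a normal diet. The study's methods give a somewhat younger age at surgery. PHx, the surgical removal of most of the liver, had been carried out 48, 72 or 96 hours earlier, or not at all (0 h). There was 1 library per time point, so no difference below has a replicate check, and time after PHx cannot be told apart from anything else that set the libraries apart. Counts in the nuclei of a library were summed, and in such a sum fewer nuclei open at a site cannot be told apart from less opening per nucleus.

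Transposase cuts DNA where nucleosomes are displaced, so peaks of cuts mark promoters and enhancers that proteins can reach. Hepatocytes secrete most plasma proteins, carry out intermediary metabolism and detoxification, and keep this programme under the control of a set of liver transcription factors. After PHx the remaining hepatocytes leave quiescence and divide, and liver mass is regained over the following days while those functions must continue.

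The reference sequences of the promoters of 7 genes described below are given first, because they show how unlike one another the start sites on both sides of the comparison were. Hpx, Rprm and Phlda3 were among the genes with the highest ratios at 96 h, Car5a, Slc17a1 and Abca8b among those with the lowest, and Onecut1 was a liver transcription factor below its 0 h level. Each sequence runs 5′ to 3′ on the strand of the gene, from 250 bases before to 50 after the annotated start (RefSeq, GRCm38.p6), with every CG dinucleotide in capitals. Hpx is at chr7:105600067-105600366 (minus strand), Rprm at chr2:54085503-54085802 (minus), Phlda3 at chr1:135765835-135766134 (plus), Car5a at chr8:121944863-121945162 (minus), Slc17a1 at chr13:23868768-23869067 (plus; 1 of its 2 promoters in the table), Abca8b at chr11:109995796-109996095 (minus) and Onecut1 at chr9:74861671-74861970 (plus).
Hpx: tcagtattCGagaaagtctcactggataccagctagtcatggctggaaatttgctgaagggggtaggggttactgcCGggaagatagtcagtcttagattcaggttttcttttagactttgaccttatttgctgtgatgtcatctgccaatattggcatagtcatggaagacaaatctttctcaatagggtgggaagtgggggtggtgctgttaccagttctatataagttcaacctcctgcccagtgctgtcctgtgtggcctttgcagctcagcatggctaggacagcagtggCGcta
Rprm: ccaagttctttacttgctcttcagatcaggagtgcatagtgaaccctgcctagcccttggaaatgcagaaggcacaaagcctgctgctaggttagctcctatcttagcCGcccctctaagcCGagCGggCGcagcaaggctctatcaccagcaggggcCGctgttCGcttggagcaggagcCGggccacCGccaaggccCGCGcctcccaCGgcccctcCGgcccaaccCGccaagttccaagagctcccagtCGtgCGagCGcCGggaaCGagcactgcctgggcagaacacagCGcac
Phlda3: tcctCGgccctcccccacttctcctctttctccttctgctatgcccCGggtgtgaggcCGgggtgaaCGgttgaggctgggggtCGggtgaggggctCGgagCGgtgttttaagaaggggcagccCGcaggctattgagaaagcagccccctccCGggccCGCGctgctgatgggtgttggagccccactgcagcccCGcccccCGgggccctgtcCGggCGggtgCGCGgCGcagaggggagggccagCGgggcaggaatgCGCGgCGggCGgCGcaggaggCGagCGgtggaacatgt
Car5a: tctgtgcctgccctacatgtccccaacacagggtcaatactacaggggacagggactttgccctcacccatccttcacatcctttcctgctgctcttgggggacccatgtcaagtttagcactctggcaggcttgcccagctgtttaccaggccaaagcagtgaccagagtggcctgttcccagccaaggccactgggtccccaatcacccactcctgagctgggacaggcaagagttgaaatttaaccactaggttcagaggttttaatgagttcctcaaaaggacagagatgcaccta
Slc17a1: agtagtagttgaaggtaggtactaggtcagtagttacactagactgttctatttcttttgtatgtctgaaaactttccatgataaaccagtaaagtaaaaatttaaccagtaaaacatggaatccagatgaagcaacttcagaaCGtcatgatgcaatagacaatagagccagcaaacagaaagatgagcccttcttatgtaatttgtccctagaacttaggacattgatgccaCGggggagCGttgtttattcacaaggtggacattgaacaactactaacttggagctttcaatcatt
Abca8b: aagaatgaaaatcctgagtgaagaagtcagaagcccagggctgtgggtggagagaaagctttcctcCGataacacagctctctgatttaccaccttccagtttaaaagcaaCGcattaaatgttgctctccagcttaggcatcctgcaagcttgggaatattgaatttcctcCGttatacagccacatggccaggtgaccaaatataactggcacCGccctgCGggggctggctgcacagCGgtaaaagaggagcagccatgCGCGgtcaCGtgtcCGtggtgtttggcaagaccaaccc
Onecut1: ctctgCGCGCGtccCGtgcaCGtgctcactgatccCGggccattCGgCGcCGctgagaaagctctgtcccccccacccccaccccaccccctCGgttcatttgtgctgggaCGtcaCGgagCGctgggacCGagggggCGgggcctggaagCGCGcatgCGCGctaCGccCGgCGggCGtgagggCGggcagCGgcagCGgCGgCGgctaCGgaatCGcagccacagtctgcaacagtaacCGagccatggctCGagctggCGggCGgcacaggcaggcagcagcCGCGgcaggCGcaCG

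Among the promoters with a higher ratio, Hpx had 3 CG dinucleotides, Rprm 19 and Phlda3 26. Among those with a lower ratio, Car5a had 0, Slc17a1 3, Abca8b 10 and Onecut1 38. CG-poor and CG-rich start sites thus occurred on both sides. Searching both strands, the C/EBP letters TTGCNNAA were found in Hpx (from base 51) and Abca8b, and in 10.8% of the 32851 promoters of the same length in the table. Car5a held the FOXA letters TGTTTAC (base 142, 3.65% of promoters). Slc17a1 held TTATGTAA, bound by PAR bZIP factors (base 196, 0.938% of promoters), and TAGGTCA, bound by ROR and REV-ERB (base 23, 2.61%). The E-box CACGTG occurred in Abca8b and Onecut1 (7.15% of promoters), GCGCATGCG, bound by NRF1, in Onecut1 (1.75%), and the SP/KLF letters GGGCGGG in Phlda3 and Onecut1 (25.6%). None of these letter strings contains another, the NRF1 letters in Onecut1 were matched on both strands at overlapping positions, and a match describes the sequence only.

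Genes for transfer RNA, which RNA polymerase III transcribes from a promoter inside the gene, are the second set shown, because the pair that held the 4 genes below was the lowest of all pairs at tRNA genes. They lie within chr11:69039591-69042132, and the capitals mark GTTCGA, letters in the B box of that internal promoter, which 72 of the 102 tRNA genes in the pairs held. n-TDgtc9 is at chr11:69040984-69041055 (plus), n-TGtcc6 at chr11:69041278-69041349 (minus), n-TPcgg3 at chr11:69040385-69040456 (plus) and n-TWcca7 at chr11:69041826-69041897 (plus), all in GRCm38.p6.
n-TDgtc9: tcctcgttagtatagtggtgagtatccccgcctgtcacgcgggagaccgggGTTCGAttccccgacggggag
n-TGtcc6: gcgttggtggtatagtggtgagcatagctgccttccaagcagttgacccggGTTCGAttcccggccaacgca
n-TPcgg3: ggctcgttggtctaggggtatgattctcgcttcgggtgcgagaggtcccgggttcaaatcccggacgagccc
n-TWcca7: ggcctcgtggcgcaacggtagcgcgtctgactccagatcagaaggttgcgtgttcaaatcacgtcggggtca

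The libraries differed widely in depth. With a minimum of 1000 counts per barcode, the PHx 0 h library kept 3977 of 4645 barcodes with a median of 26005 counts, and the PHx 96 h library kept 3224 of 4899 with a median of 3681.5. Total counts were 136582768 and 14935507. In the 100 counts below and above that minimum lay 37 and 44 barcodes at 0 h, and 94 and 77 at 96 h. The libraries shared 852 barcodes, deep at 0 h (median 72533.5 counts) and shallow at 96 h (median 421), and 42 of them had at least 1000 counts in both. The labelled cell type was borne out by its markers: all 10 hepatocyte marker genes held counts, with summed levels of 4478 and 5296 CPM (counts scaled to the usual common library total) at 0 and 96 h. Endothelial markers summed to 423 and 230 CPM (Cdh5 at 0), where 0 means that the gene held no counts in the autosomal peaks called. Kupffer and myeloid markers summed to 173 and 112 (5 at 0, Adgre1, Clec4f and Marco among them, with Vsig4 not on an autosome), stellate and mesenchymal markers to 87.6 and 152 (Des, Dcn and Ecm1 at 0), cholangiocyte markers to 146 and 198 (Krt19, Krt7 and Cftr at 0), and lymphocyte markers to 0.0296 and 0. Nuclei with more counts in the markers of other cell types than in those of hepatocytes made up 4.70% at 0 h and 2.33% at 96 h. Their part in the differences below was not tested beyond leaving them out, after which 579 of the 609 genes higher and 554 of the 568 genes lower at 96 h, as counted below, were still past 1.5-fold.

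Peaks had been called in each library by itself, and peaks were shorter at 96 h. Among pairs over the length limit, the 0 h peak was the longer in 39870 and the 96 h peak in 237, so the pairs compared came from the minority of regions with peaks of like length. They held 20.8% of the counts of the 0 h nuclei and 32.1% of those of the 96 h nuclei. With the longer peak at 0 h, pairs up to 0.05 under the length limit had a median uncorrected log2 ratio of -0.10 (2097 pairs), and those up to 0.05 over it one of -0.14 (1914 pairs). With the longer peak at 96 h, these medians were 1.999 (10 pairs) and 2.07 (6 pairs). The log2 ratio of 96 h over 0 h increased with the log2 length ratio at a slope of 1.90, and this trend was taken off. All ratios below are log2 values corrected in this way and centred on the median over pairs, genes or promoters, unless given as uncorrected. Levels are CPM of the counts in all pairs and are not corrected, so a gene whose CPM differed little can have a ratio far from 0 if its peak was as long at 96 h as at 0 h. Intervals are exact 95% intervals on the counts taken as fragments, and cover counting error only.

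Of the 18126 pairs, 15613 had a mean scaled count of at least 50 and were read, and 2513 did not. The ratio ranged from -1.71 to 1.31 with an SD over pairs of 0.43. At least 1.5-fold higher at 96 h were 1082 pairs (6.93%), and at least 1.5-fold lower were 1646 (10.5%). At 2-fold, 44 pairs were higher (0.282%) and 224 lower (1.43%). The counting interval of a pair had a median half-width of 0.34, and 7 of the pairs past 1.5-fold had an interval that included 0.

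The pair with the highest ratio among those with a mean scaled count of at least 200 spanned the start site of Hpx, which encodes the haem scavenger hemopexin (chr7:105586757-105601654, build mm10 as for all pairs). It stood at 1.22 (interval 1.18 to 1.27). Next came pairs at the starts of Kif26b (1.19), Rprm (1.14), Epdr1 (1.11) and Phlda3 (1.104). The lowest pair lay between genes, 5363 bp from the start of Pigyl (chr9:22149137-22151483), where the level went from 166.4 to 63.8 CPM (ratio -1.71, interval -1.96 to -1.48). Another pair between genes, 24242 bp from the start of Tnks2 (chr19:36808296-36809990), was at -1.65. The other 3 of the lowest 5 were at Saa1 (-1.67), Gstt2 (-1.64) and Rdm1 (-1.64). The 5 highest pairs were thus all at promoters, and 2 of the 5 lowest were far from one.

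Promoters, taken as pairs within 1000 bp of an annotated start, were lower at 96 h more often than other regions. Of 5270 promoter pairs, 862 (16.4%) were at least 1.5-fold lower and 236 (4.48%) higher, with a median of -0.18. The 5613 pairs in gene bodies had a median of 0.08, with 8.62% higher and 7.50% lower, and the 4730 between genes had a median of 0.08, with 7.65% higher and 7.67% lower. Pairs more than 50 kb from a start had a median of 0.13. The ratio also followed the level. With the pairs in 5 equal groups by mean scaled count, 12.0% of the lowest group were higher and 0.480% lower, and 0.704% of the highest group were higher and 26.8% lower, with medians of 0.26 and -0.36. A pair needed a peak called in the 96 h library, which had fewer counts, so sites of low level could enter more readily if high at 96 h. How far this shaped the trend was not tested. Pairs past 1.5-fold lower had a median scaled count of 469 and a median length at 0 h of 2172.5 bp, those higher 94.6 and 686 bp. With each class split into 3 equal groups by its own levels, the highest groups of promoters, gene bodies and regions between genes had medians of -0.31, -0.25 and -0.25, at median scaled counts of 813, 296 and 275. After a correction for level the 3 medians over all pairs were 0.038, -0.0059 and -0.031, so the promoters no longer stood below the other regions.

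**Figure D1:**
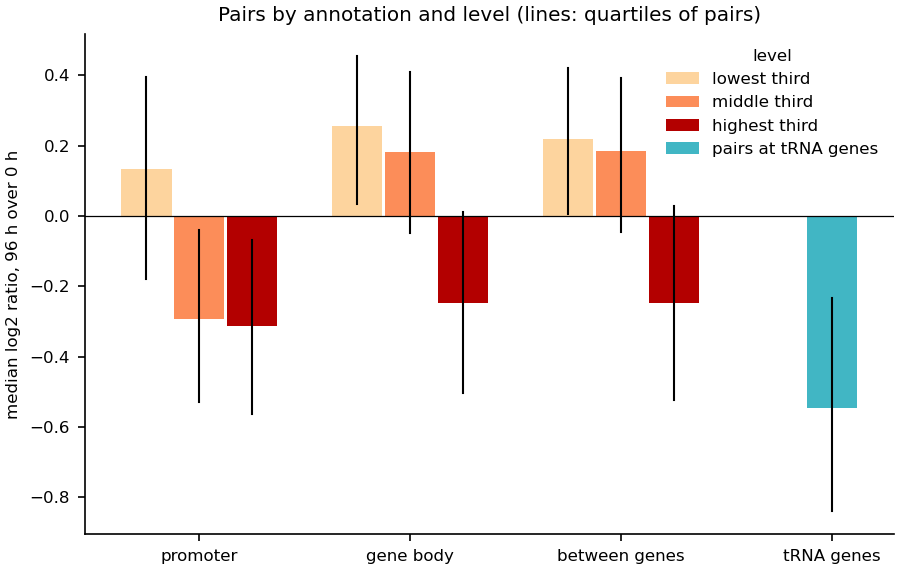
Median log2 ratio of 96 h over 0 h (vertical axis) of pairs at promoters, in gene bodies and between genes, each split into 3 equal groups by mean scaled count, and of the 63 pairs at tRNA genes. Lines span the quartiles of the pairs; the promoter medians were 0.13 in the lowest and -0.31 in the highest group, and the tRNA pairs had a median of -0.54.

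Pairs over tRNA genes were lower at 96 h more often than other pairs. Of 386 autosomal tRNA genes, 102 lay in 63 pairs read, and 29 of these pairs (46.0%) were at least 1.5-fold lower and 3 higher. Over all pairs read 10.5% were lower and 6.93% higher, and in the highest of the 5 groups by level 26.8% and 0.704%. The median of the tRNA pairs was -0.54, and 53 of 63 were below 0. The pair with the 4 genes printed above went from 210.0 to 91.6 CPM, a ratio of -1.63 (interval -1.83 to -1.43), and lay 3515 bp from the start of Aurkb. It was followed by a pair on chromosome 5 (n-TAtgc10, n-TDgtc15 and n-TFgaa7, -1.22) and one on chromosome 14 (n-TLaag8, n-TPagg4 and n-TTtgt3, -1.15). Among the 51 pairs more than 1000 bp from the start of a protein-coding gene, 24 were lower and 3 higher (median -0.55), so the low values were not limited to pairs near such starts. The tRNA pairs were high in level (median scaled count 529), and corrected for level their median was -0.22. The tRNA pairs were looked at after values had been seen, and are a description.

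Promoters poor in CpG were lower more often than those rich in it, a split also made after values had been seen. With an observed to expected CpG ratio of at least 0.6 counted as rich, 380 of 1789 CpG-poor promoter pairs (21.2%) and 482 of 3481 CpG-rich ones (13.8%) were at least 1.5-fold lower, while 4.42% and 4.51% were higher. In the highest of the 3 groups by level the shares lower were 41.8% of 462 CpG-poor and 16.4% of 1295 CpG-rich pairs, with medians of -0.50 and -0.24. In the lowest group the shares lower were alike, 5.66% of 865 CpG-poor and 5.38% of 892 CpG-rich pairs, while 8.21% and 14.7% were higher. Short motifs were counted in 300 bp at the centre of each 0 h peak. The E-box CACGTG was in 5.96% of promoter pairs, in 7.54% of the lower and in 2.54% of the higher ones, and GCGCATGCG was in 1.12%, 1.86% and 0%. The SP/KLF letters were in 33.3%, 23.4% and 35.2%. Away from promoters, the AP-1 letters TGACTCA were in 6.48% of pairs, in 6.86% of the higher and 5.10% of the lower ones, and the C/EBP letters in 17.1%, 17.6% and 14.8%. At promoters the lower pairs held these letters more often than the higher ones. AP-1 was in 2.81% of all, 3.39% of the higher (8 of 236) and 4.41% of the lower pairs (38 of 862). C/EBP was in 7.42%, 6.36% (15 of 236) and 9.28% (80 of 862). Apart from the SP/KLF letters, the shares among higher promoter pairs thus rest on few pairs, and other motifs counted are not given. No enrichment test was run, and the higher and lower pairs differed in level and base composition, with a median GC content at promoters of 60.9% in the higher and 53.0% in the lower ones.

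Summed over the pairs in a gene or up to 2000 bp upstream of it, 7208 of 20807 autosomal protein-coding genes were read, 4902 of them from 1 pair. At least 1.5-fold higher at 96 h were 609 genes (8.45%) and lower were 568 (7.88%). At 2-fold, 41 genes were higher (0.569%) and 52 lower (0.721%). Of 4909 genes read at their promoters alone, 465 were higher (9.47%) and 321 lower (6.54%). Gene and promoter sums were each centred on their own median, which differs from the centre of the pairs. Over 13 alternatives in how counts were chosen and corrected, 113 of the 609 higher genes and 200 of the 568 lower ones stayed past 1.5-fold in each. A gene without a value under an alternative counted as not staying, which affected the higher genes more. When fragments were counted, 433 of the 609 higher genes had a value (423 past 1.5-fold), against 567 of the 568 lower ones (466 past it). The 13 leave out the tighter length ratio of at most 1.2, under which fewer genes have a value and the higher genes were weaker. With that ratio 94 of the 209 higher genes with a value were still past 1.5-fold (2 changed sign), against 161 of 171 lower ones, and of the 113 and 200 genes 25 of 50 and 25 of 25. Among the 113 and 200 were all 12 of the higher and 11 of the 12 lower genes described next (not Saa1), which are those with the largest and smallest ratios among genes with a mean scaled count of at least 200.

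**Figure D2:**
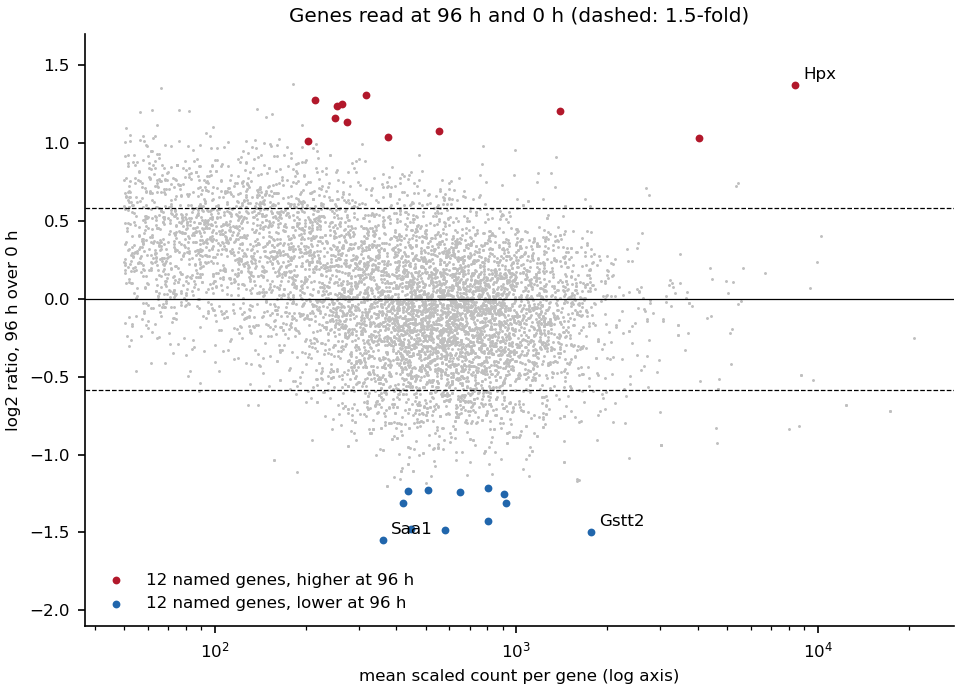
Log2 ratio of 96 h over 0 h against mean scaled count (log axis) for the 7208 genes read, with the 12 genes of highest ratio in red, the 12 of lowest ratio in blue and dashed lines at 1.5-fold. Genes of low count lay mostly above 0, and Hpx combined a high count with the highest ratio among the named genes.

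Hpx had the highest ratio of these genes. Its level went from 809 CPM (795 to 824) at 0 h to 2695 CPM (2630 to 2762) at 96 h, a ratio of 1.37 (interval 1.33 to 1.41), and its pair, which covered the whole gene, was 14898 bp long at 0 h. The pair of Tecr, an enzyme of very-long-chain fatty acid elongation, was also that of Dnajb1, a co-chaperone of heat shock protein 70, and went from 381 to 1300 CPM (ratio 1.03, 0.97 to 1.096). Tnfsf14, which encodes the TNF family cytokine LIGHT, went from 115 to 466 CPM (1.21, 1.097 to 1.32). These 3 loci were the ones with high counts in both libraries.

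The other 9 higher genes had low levels at 0 h, between 18.6 and 77.2 CPM, where pairs could enter more readily if high at 96 h. Rprm, which can halt the cell cycle in G2, went from 45.4 to 87.0 CPM (1.31, 1.08 to 1.54). Phlda3, which restrains AKT signalling, went from 18.6 to 87.4 CPM (1.24, 0.98 to 1.52). Epdr1, which encodes an ependymin-related secreted protein, went from 27.9 to 61.5 CPM (1.27, 1.004 to 1.56). In each of these 3 genes the counting intervals of the levels at 0 and 96 h did not overlap. The genes had been chosen by these same counts, so this is no separate support. Rerg, a RAS-like inhibitor of growth, went from 36.2 to 78.0 CPM (1.13). Hs3st1, a heparan sulfate sulfotransferase, went from 77.2 to 153.5 CPM (1.08), and Sox21, a transcription factor of neural development, from 56.5 to 99.7 CPM (1.03). Fam171b (1.25), Vstm2a (1.16) and Ryr2, the calcium release channel of heart muscle (1.01), completed the group. Restricted to pairs with a length ratio of at most 1.2, Hpx stayed at 1.37 while Phlda3 stood at 0.69, Tnfsf14 at 0.81, Tecr at 0.70 and Ryr2 at 0.49, which for Ryr2 is within 1.5-fold.

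**Figure D3:**
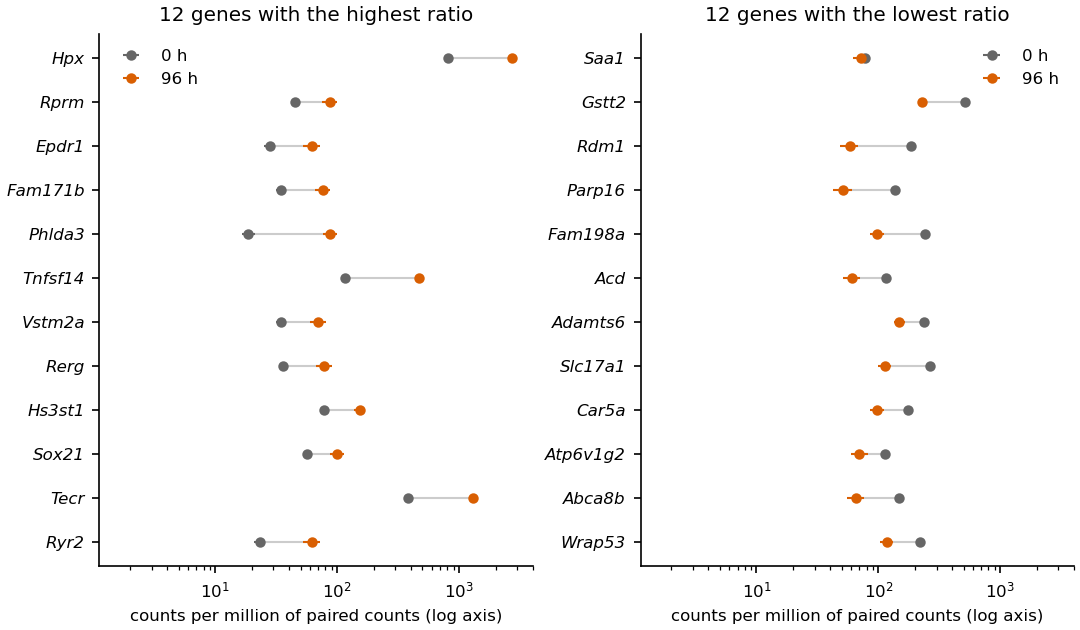
Levels in CPM of paired counts (log axis) at 0 and 96 h for the 12 genes with the highest and the 12 with the lowest ratio, with exact 95% Poisson intervals on the counts. The higher genes other than Hpx, Tecr and Tnfsf14 stood below 80 CPM at 0 h, whereas the lower genes stood between 77.8 (Saa1) and 509.9 CPM (Gstt2).

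Among the lower genes, Gstt2, a theta class glutathione transferase, went from 509.9 CPM (498 to 522) to 229.0 CPM (210.2 to 249), a ratio of -1.50 (interval -1.62 to -1.37). Rdm1, an RNA-binding protein related to RAD52, went from 184.8 to 58.0 CPM (-1.48, -1.74 to -1.24). Parp16, an ADP-ribosyltransferase of the endoplasmic reticulum, went from 135.7 to 50.9 CPM (-1.48, -1.76 to -1.22). Before any correction the ratios of these 3 genes were already -1.15 (Gstt2), -1.67 (Rdm1) and -1.41 (Parp16). Fam198a was at -1.42. Taken out of order of ratio, 3 further genes serve transport and metabolism in liver (Acd and Adamts6, given below, had lower ratios). Slc17a1, a sodium-dependent phosphate and urate transporter, went from 265.5 to 113.0 CPM (-1.26, -1.44 to -1.08). Car5a, the mitochondrial carbonic anhydrase that supplies bicarbonate to the urea cycle and gluconeogenesis, went from 175.0 to 97.2 CPM (-1.24, -1.44 to -1.05). Abca8b, an ABC transporter, went from 146.6 to 65.5 CPM (-1.23, -1.47 to -0.99). The promoters printed for these genes lie inside their pairs.

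Pairs shared by divergent or overlapping genes could not be assigned to one of them. Acd, the shelterin subunit TPP1, shared a pair with the polarity gene Pard6a (114.6 to 60.5 CPM, -1.31). Wrap53, needed for telomerase assembly, shared one with Trp53, which encodes p53 (217.6 to 117.2 CPM, -1.21). Atp6v1g2, a subunit of the vacuolar proton pump, shared one with Nfkbil1 (112.6 to 69.9 CPM, -1.24). Adamts6, a secreted metalloprotease, was at -1.31. Saa1, the acute phase protein serum amyloid A, had the lowest ratio (-1.55) but hardly differed in level, with 77.8 CPM (73.3 to 82.5) at 0 h and 72.4 CPM (62.2 to 84.2) at 96 h. Its pair lay 2223 bp from the start of Saa1, the 96 h peak was the longer (2947 against 2308 bp), and without the length correction the ratio was -0.11. Reads may also be split between Saa1 and its near-identical neighbours.

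Genes were then read in lists of liver functions and cell types, by the counts of members read and past 1.5-fold, against a median of 0 over all genes and the shares of 8.45% and 7.88% above. The rule left several central lists unread. None of the 10 hepatocyte markers, 12 periportal genes, 21 urea cycle and amino acid breakdown genes or 21 fatty acid oxidation and PPARA target genes was read, since their peaks did not pair one to one or differed too much in length. With a length ratio of up to 2, 3 fatty acid oxidation genes were read, 2 of them lower (median -0.81), and 3 genes of the urea cycle and amino acid breakdown, none past 1.5-fold (median -0.54). The lists therefore describe the members with peaks of like length, not the pathways as a whole.

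**Figure D4:**
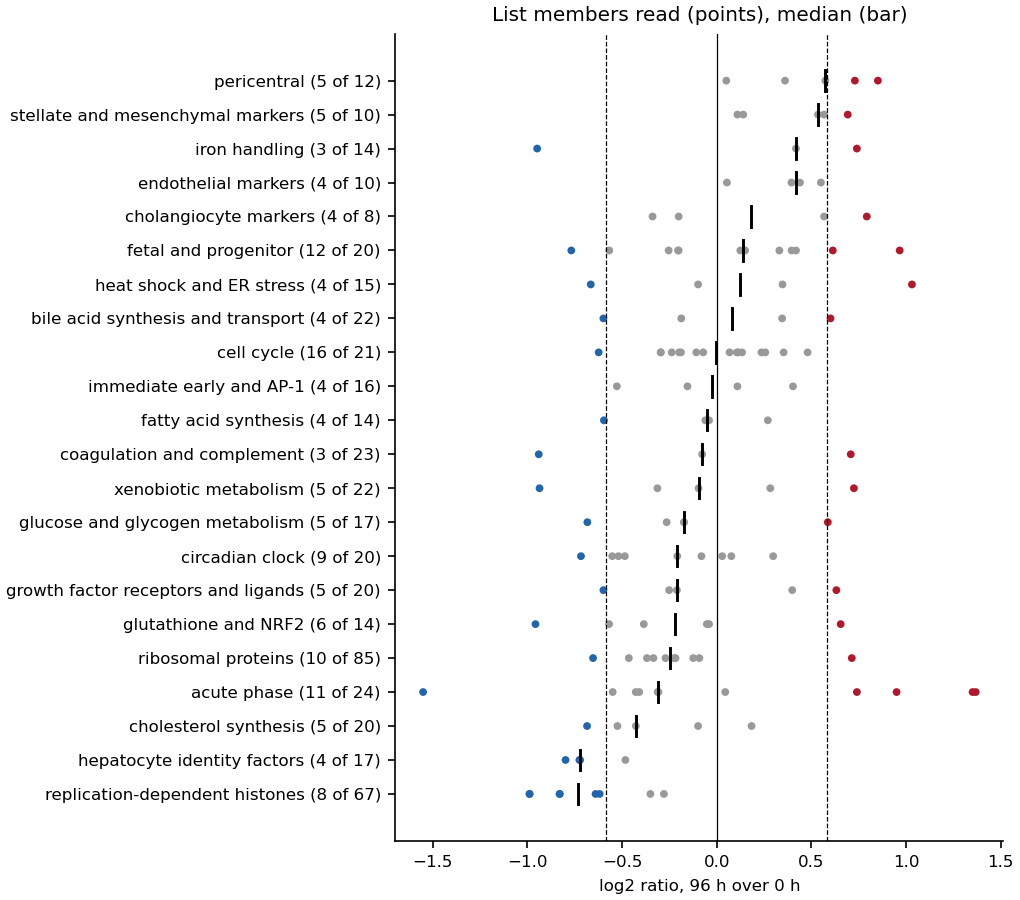
Log2 ratio of 96 h over 0 h (horizontal axis) of each list member read (points), coloured red or blue past 1.5-fold (dashed lines), with the list's median (bar) and the number read of all members, for lists with at least 3 members read. Replication-dependent histones and hepatocyte identity factors had the lowest medians, at -0.73 and -0.72, and pericentral genes the highest, at 0.57.

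Acute phase genes, which liver induces in inflammation, lay at both ends, though at the low end through Saa1 alone. Without the length correction Saa1 stood at -0.11, within 1.5-fold. Of 24, 11 were read, 4 were higher and 1 (Saa1) lower, with a median of -0.31. Besides Hpx, the higher ones were Itih4, an inter-alpha-trypsin inhibitor chain (7.13 to 20.4 CPM, 1.35, 0.85 to 1.88), Crp, C-reactive protein (31.0 to 60.1 CPM, 0.95), and Cp, the copper ferroxidase ceruloplasmin (683 to 1584 CPM, 0.74, 0.69 to 0.80). The 6 members within 1.5-fold ran from Apcs (-0.55) to Il1r1 (0.05). With a length ratio of up to 2, 14 were read, 4 were higher and 1 lower, and the median was -0.07. Of 14 iron handling genes, 3 were read: Cp, the ligand Bmp6 (0.42) and Tfr2, the hepatocyte iron sensor that acts upstream of hepcidin (123 to 59.0 CPM, -0.95, -1.203 to -0.70). Of 23 coagulation and complement genes, 3 were read, with 1 higher and 1 lower: among them were the anticoagulant Pros1 (-0.08) and C8b, a subunit of the membrane attack complex (130.1 to 83.6 CPM, -0.94). Genes for plasma proteins were thus found in both directions.

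Of 17 transcription factors that define hepatocyte identity, 4 were read and 3 were at least 1.5-fold lower, with a median of -0.72. Onecut2 went from 520.3 to 435 CPM (-0.80, -0.89 to -0.71), Nr5a2 from 722 to 529.7 CPM (-0.73, -0.81 to -0.64) and Onecut1 from 428 to 360 CPM (-0.72, -0.83 to -0.62). Tcf7l2, the effector of WNT signalling, was at -0.48. Onecut1 and Onecut2 encode the paralogues HNF6 and OC2, and Nr5a2 (LRH-1) regulates bile acid synthesis. Without the length correction these 3 stood at -0.25 (Onecut1), -0.26 (Onecut2) and -0.45 (Nr5a2), within 1.5-fold, and after the correction for level at -0.42 (Onecut1), -0.45 (Onecut2) and -0.33 (Nr5a2), also within it. With a length ratio of at most 1.2 they stood further from 0, at -0.87 (Onecut1), -0.95 (Onecut2) and -0.86 (Nr5a2). With a length ratio of up to 2, 7 members of the list were read, 2 were lower and the median was -0.31.

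Metabolic lists held single members past 1.5-fold in either direction. In xenobiotic metabolism (5 of 22 read), the cytochrome P450 gene Cyp2c29 went from 45.2 to 150.8 CPM (0.73, but 0.15 with a length ratio of at most 1.2 and 1.73 without the length correction), and Nr1i3, the xenobiotic receptor CAR, from 784 to 478 CPM (-0.94, -1.03 to -0.85). In glucose and glycogen metabolism 5 of 17 were read, with 1 higher and 1 lower. In glutathione metabolism and the NRF2 response (6 of 14), the cystine transporter Slc7a11 went from 56.8 to 93.6 CPM (0.66) and the transferase Gsta2 from 122.5 to 62.6 CPM (-0.96). In each of these lists 1 member was higher and 1 lower. Among bile acid genes (4 of 22) Baat, which conjugates bile acids, was at 0.60 and the receptor Fgfr4 at -0.60. Among cholesterol synthesis genes (5 of 20) Mvd was lower (-0.68) and Idi1 was the highest at 0.18. Among fatty acid synthesis genes (4 of 14) Pnpla3 was lower (-0.60) and Elovl6 the highest at 0.27. The sex-biased liver genes had 1 member read each (Susd4 at 0.39 and Fmo2 at 0.21).

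Pericentral genes, which hepatocytes around the central vein express under WNT signalling, had the highest median among lists with at least 3 members read (0.57, 5 of 12). Lgr5, the R-spondin receptor, went from 125.3 to 249.9 CPM (0.73, 0.60 to 0.87) and the glutamate transporter Slc1a2 from 14.8 to 31.3 CPM (0.85). Rhbg (0.57), Axin2 (0.36) and Aldh1a1 (0.05) were within 1.5-fold. With a length ratio of up to 2 the median of the 5 members read was 0.22 and 1 was higher. Slc1a2 then stood at 0.25, and at 0.40 with a length ratio of at most 1.2, within 1.5-fold in both.

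Cell cycle genes were close to the median of all genes. Of 21, 16 were read, none was higher and 1 was lower, Ccnd1, which encodes the G1 cyclin D1 (282 to 240.5 CPM, -0.62). The highest was Mki67, the proliferation antigen Ki-67 (0.48). Growth factor receptors and ligands (5 of 20) ran from Fgfr4 (-0.60) to Egfr, the receptor of epidermal growth factor (65.0 to 200.2 CPM, 0.63). None of the 4 immediate early genes read of 16 was past 1.5-fold, from Myc (-0.53) to Jun (0.40), but after the correction for level the AP-1 subunits Jun (1.03) and Fos (0.61, from 0.11) were past it, as was Myc (-0.71) with a length ratio of at most 1.2. Replication-dependent histone genes, which are transcribed in S phase, had the lowest median (-0.73). Of 67, 8 were read and 6 were lower, but Hist2h2bb and Hist2h3b shared a pair (132.6 to 72.2 CPM, -0.99), as did Hist1h2ah and Hist1h2bk (126.9 to 57.4 CPM, -0.83). With a length ratio of up to 2, 16 were read and 9 were lower. Heat shock and stress genes (4 of 15) ran from Hsp90aa1 (-0.67) to Dnajb1 (1.03), and circadian genes (9 of 20) from the PAR bZIP factor Hlf (240.4 to 190.2 CPM, -0.72) to Npas2 (0.30). Of 85 ribosomal protein genes 10 were read, with a median of -0.25, 1 higher and 1 lower.

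Fetal and progenitor genes (12 of 20 read) had a median of 0.14. Sox17, a factor of endoderm, went from 29.4 to 59.2 CPM (0.97, 0.69 to 1.25), Neurod1 was at 0.61, and Gata6 was lower (341.9 to 240.5 CPM, -0.77). A wider list of 184 developmental transcription factors was drawn up after Sox21 and Sox17 had been seen. Of its 67 members read, 18 were higher (26.9%), 1 was lower and 55 stood above 0, with a median of 0.35. Gata3 (0.92) and Dlx6 (0.91) were among the highest. The median was 0.16 after correction for level and 0.09 with a length ratio of at most 1.2, and the list says nothing independent of the genes that prompted it. The paired members of the other cell types' marker lists stood mostly above 0, with medians of 0.42 for endothelial (4 of 10 read), 0.54 for stellate and mesenchymal (5 of 10) and 0.18 for cholangiocyte markers (4 of 8). Those past 1.5-fold were Csf1r (0.75), a receptor of macrophages, Lrat (0.69), which stores retinol in stellate cells, and Epcam (0.79), a surface protein of cholangiocytes. Over the peaks of all members, paired or not, the summed levels of endothelial markers (423 to 230 CPM) and of Kupffer and myeloid markers (173 to 112 CPM) were lower at 96 h, the other way from their few paired members, while those of stellate and cholangiocyte markers were higher (87.6 to 152 and 146 to 198 CPM). Such sums run over the peaks each library called by itself, 117333 autosomal ones at 0 h and 76182 at 96 h. They are neither length-matched nor CPM of paired counts.

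The lists were chosen with earlier results known, so nothing is read from their summed counts. Over all lists, 19 genes were higher and 23 lower, beside shares of 8.45% and 7.88% over all genes read. Under each of the 13 alternatives 10 of the higher ones, among them Hpx, Crp, Cp, Cyp2c29, Slc7a11, Lgr5, Sox17, Dnajb1 and Epcam, stayed at least 1.5-fold higher, and Tfr2 and the 4 histone genes named above stayed at least 1.5-fold lower. With a length ratio of at most 1.2, which is not among the 13, Cyp2c29 (0.15) and Slc7a11 (0.56) came within 1.5-fold, and Hpx (1.37), Cp (0.60), Lgr5 (0.79) and Dnajb1 (0.70) did not. Itih4 stayed at least 1.5-fold higher under each alternative that gave it a value, and had none when fragments were counted. The other 8 higher and 18 lower list genes came within 1.5-fold under at least 1 alternative.

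The libraries at 48 and 72 h were compared with the same 0 h library, so their ratios share it with those at 96 h and are given side by side only. The genes higher at 96 h had a median of 0.28 at 48 h (501 genes with a value), 0.31 at 72 h (481) and 0.72 at 96 h. The genes lower at 96 h had medians of -0.17 (545), -0.37 (559) and -0.72. Past 1.5-fold in the same direction were 62 and 89 of the higher genes and 17 and 108 of the lower genes at 48 and 72 h. Over all genes read at those times, 2.56% and 4.04% were higher and 0.869% and 3.72% lower, and because the 0 h library is shared nothing is read from these counts. The genes had been chosen at 96 h, so their larger values there are fixed by that choice. Among the higher genes, Hpx stood at 1.32 at 72 h, Epdr1 at 0.99 and 1.06 at 48 and 72 h, and Sox21 at 0.95 and 1.03. Vstm2a (0.18 and -0.07) and Hs3st1 (0.44 and 0.09) were close to 0 at 72 h. All 12 lower genes were below 0 at both earlier times. They ran from Parp16 (-0.02) to Gstt2 (-0.52) at 48 h, and from Abca8b (-0.43) to Gstt2 (-1.18) at 72 h, when Parp16 was at -0.90. Of the list genes, Onecut2 went from 0.34 at 48 h to -0.30 at 72 h and -0.80 at 96 h, and Cdk1, the mitotic kinase, was at -0.95, -0.35 and -0.20.

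**Figure D5:**
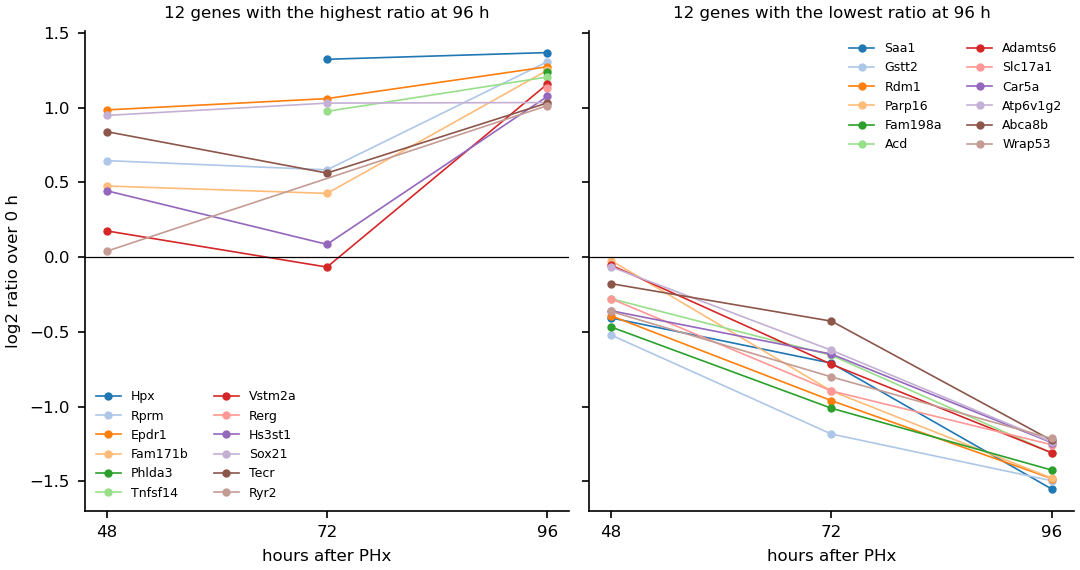
Log2 ratio over the shared 0 h library at 48, 72 and 96 h after PHx for the 12 genes with the highest and the 12 with the lowest ratio at 96 h; a missing point had no pair within the length limit or too few counts. All 12 lower genes were below 0 at 48 and 72 h, whereas Vstm2a and Hs3st1 were near 0 at 72 h and above 1 at 96 h.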

How the data were processed

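The authors had aligned the reads of each library to the mouse genome (mm10), removed duplicates, called peaks and counted with Cell Ranger ATAC, as named in the submitters' processing notes; the deposited matrix headers give software version 1.1.0. The deposited values are raw counts of transposase cut sites per peak and barcode, even in 87.3% to 88.6% of entries. No replicates were pooled. The sources used here do not say if the 96 h nuclei came from 1 animal, and each library was taken as 1 sample.

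Barcodes with at least 1000 counts were kept as nuclei, with no doublet caller. Counts were summed per peak and library, scaled to equal totals over the pairs and given a pseudocount of 1. The log2 ratio was centred on its median and corrected for a linear trend on the log2 length ratio. Pairs, genes or promoters with a mean scaled count under 50 were left out. With 1 library per time point there is no test: a feature was called past 1.5-fold, levels carry exact Poisson intervals and ratios exact Clopper-Pearson intervals. The genes named by size were the 12 highest and 12 lowest protein-coding genes, model names excluded, with a mean scaled count of at least 200; the pairs named were the 5 highest and 5 lowest; in lists, members past 1.5-fold and the extremes were named, apart from a few that are not reported here. The members and lists were chosen with earlier results of these data known. The list of developmental factors, the tRNA and CpG splits and the count of genes kept over all alternatives were added after values had been seen. The 13 alternatives behind that count leave out those on a length ratio of 1.2 and the count minimum. Genes were annotated with GENCODE vM21, and promoter and tRNA sequences came from RefSeq (GRCm38.p6). Scripts were tested on simulated data and run with Python 3.11.15, numpy 2.4.6, scipy 1.17.1, pandas 2.3.3 and matplotlib 3.10.9.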

Additional observations from a re-analysis of the deposited data

How the results depend on the processing

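No paired analysis was possible because each time point is 1 library. No named gene past 1.5-fold changed sign under an alternative; 70 summary values stayed within their margin and 46 moved. Peak pairs higher at 96 h numbered 154 and peak pairs lower at 96 h 476 with a length ratio of at most 1.2, 1976 and 2755 with one of at most 2, 2898 and 692 without centring, 719 and 829 after a correction for level, 461 and 412 with a count minimum of 200, and 44 and 224 at 2-fold; pairs higher were 2244 without the length correction and 1668 with equal weight per barcode, and pairs lower 1002 in fragments. Genes higher at 96 h and genes lower at 96 h were 162 and 249 (length ratio 1.2), 343 and 342 (count minimum 200) and 41 and 52 (2-fold), and genes higher 974 without the length correction and 335 after the level correction. The median of promoter pairs was -0.17 with a barcode minimum of 3000 counts, -0.16 without the deepest 5% of barcodes, with a GC correction, and without barcodes of another library (an alternative chosen after seeing the data), -0.25 and -0.15 at length ratios of 1.2 and 2, 0.025 without centring, 0.038 after the level correction, -0.12 in fragments, and -0.22 and 0.0040 at count minimums of 20 and 200. The median of gene body pairs was 0.055 (length ratio 2), 0.29 (no centring), -0.0059 (level), 0.10 (equal weight) and 0.0089 (count minimum 200). The median of pairs between genes was 0.047 (length ratio 2), 0.092 (no length correction), 0.29 (no centring), -0.031 (level), 0.10 (equal weight), and 0.091 and -0.032 at count minimums of 20 and 200. With centring left out or a higher count minimum the construction itself moves the values; for the others the cause was not tested. Of the 609 higher and 568 lower genes, 247 and 390 were still past 1.5-fold after the level correction, and 483 and 488 without barcodes of another library. At the lower depth of the 96 h library counting intervals are widest for genes of low level, and the effect of depth on the calls was not tested.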
